A study of Mus musculus with 6 samples.

Results

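Kap and 9 further abundant transcripts of the mouse kidney were followed across 6 bulk RNA-seq libraries, 3 labelled IVCC and 3 labelled Sham. The 10 transcripts, Kap, Miox, Keg1, Gatm, Slc27a2, Acsm1, Acsm2, Acsm3, Ass1 and Sepp1, are named rows of a table of 24346 gene symbols. They were picked by symbol, partly for their high abundance, so their levels are a description and no test is given of the levels themselves. The IVCC kidneys came from C57BL/6 mice after an operation that the labels name only by that abbreviation, and the Sham kidneys from C57BL/6 mice after sham surgery, in a series on renal congestion. The labels give no genotype other than the strain, no age, no sex and no time after surgery, and do not say whether each library is a separate animal, so every p-value measures the spread between these libraries. The unit is FPKM, the number of fragments for each kilobase of a transcript divided by the mapped fragments of its library on a fixed scale, and a share is a transcript's FPKM as a percentage of the sum over all symbols in its library.

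The proximal tubule reabsorbs most of what the glomerulus filters and runs on fatty acid oxidation. Kap encodes kidney androgen-regulated protein, a secreted protein that proximal tubule cells make under androgen control and whose mRNA is among the most abundant of the mouse kidney. The other transcripts encode enzymes and carriers of the same cells: Miox opens the ring of myo-inositol, Gatm and Ass1 act in creatine and arginine synthesis, Slc27a2 and the Acsm enzymes activate fatty acids with coenzyme A, Keg1 belongs to the glycine N-acyltransferase family, and Sepp1 encodes selenoprotein P, which carries selenium. In these libraries the proximal tubule markers Slc34a1 (a phosphate transporter, 2131 to 2576 FPKM) and Hnf4a (a transcription factor of tubule epithelium, 199 to 248 FPKM) were present throughout. Sex bears on a transcript under androgen control, and by their RNA all 6 libraries were alike: the Y-linked Ddx3y lay between 6.58 and 14.8 FPKM and Xist at or below 0.012 FPKM.

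All 10 symbols were present and all 10 passed the filter of at least 1 FPKM on average, which 12090 of the 24346 symbols passed. FPKM carry no read totals, and the steps between low values gave nominal library sizes of 8200000, 8320000 and 9040000 reads in IVCC and 6920000, 7230000 and 6120000 reads in Sham. The lowest member value of any library corresponds to 1702 nominal reads (Ass1 in Sham 2), a counting error of 2.42%. For Ass1 that error leaves out how reads that also fit a near copy, Gm5424 (described below), were divided. The FPKM sums were 768192, 719896 and 927860 in IVCC and 854859, 775720 and 1118258 in Sham. Sham 3 had the highest sum and the lowest nominal size.

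Within the 250 bases before each RefSeq start (GRCm38.p6), the letters TATAAA on the gene's own strand were found for 4 of the 10 genes. The 10 genes have 13 RefSeq promoters between them. Of these 13 promoters 4 held the letters, against 7.59% of all 32851 RefSeq promoters. Other motifs were searched on both strands. The HNF1 half-site GTTAAT was found for 2 of the 10 genes, and in 6.43% of all promoters. The HNF4 core CAAAGTCC (1.2% of all promoters) and the steroid receptor half-site AGAACA (16.1%) were each found for 0 of the 10 genes. The 4 matches to TATAAA are shown because they include Kap and Miox, the most abundant members. Each line gives 30 bases with the motif in capitals.
Kap, chr6:133853689-133853718, minus strand: cagggacagagtacaggatgTATAAAagcc
Miox, chr15:89334413-89334442, plus strand: agttacataacctgtgcgcaTATAAAgagc
Acsm2, chr7:119554292-119554321, plus strand: ggactacattgtgtggtgtaTATAAAggac
Sepp1 (current symbol Selenop), chr15:3270947-3270976, plus strand: ggcgaggtaaacaacagggcTATAAAagtc
Counted from the RefSeq start, the motif begins at position -31 in Kap, -40 in Miox, -28 in Acsm2 and -10 in Selenop. GENCODE M21 places a start of Kap, Miox and Selenop farther upstream, so for these genes the position depends on the annotation.

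Kap (chromosome 6, 133849851 to 133853762, minus strand, GRCm38) was the most abundant transcript in every library. It was listed at 84177, 80825 and 121656 FPKM in the IVCC libraries, against 120062, 100506 and 185632 FPKM in the Sham libraries. IVCC 1 and IVCC 2 lay below every Sham library, whereas IVCC 3 lay above Sham 1 and Sham 2, so the groups overlapped. Within each group the library numbered 2 was lowest and the one numbered 3 highest. The means were 95553 ± 22668 in IVCC and 135400 ± 44588 in Sham in FPKM (SD, n = 3). Its log2 fold change on the log2(FPKM + 1) scale was -0.48 (standard error 0.64, 95% interval -1.97 to 1.01, limma adjusted p = 0.925). Without Sham replicate 3 it was -0.23, and over the settings that leave out 1 library it reached -0.67. Kap lies at the far end of the abundance range from which limma estimates its variance trend, and its standard error moved with the settings. It was 0.39 with the robust fit, 0.26 without the trend and 0.30 with a filter at 5 FPKM. Without a filter on low values it was 192.5. The interval above thus rests on the fitted trend as well as on the spread of Kap between libraries.

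As a share of the FPKM sum, Kap took 10.96%, 11.23% and 13.11% in IVCC, against 14.04%, 12.96% and 16.60% in Sham. The groups overlapped only in that IVCC 3 lay just above Sham 2. The mean share was 11.8 ± 1.17% in IVCC and 14.5 ± 1.87% in Sham (SD, n = 3 each), a difference of -2.77 percentage points. The exact two-sided permutation test gave p = 0.2, where 3 against 3 libraries cannot go below 0.1. The highest library was 1.51 times the lowest for the share of Kap and 2.30 times for its FPKM, while the FPKM sums themselves spread 1.55-fold. Between IVCC and Sham the mean FPKM sum differed by -110963, and Kap alone made up 35.9% of that difference. The sum of all other symbols was 684015, 639071 and 806204 FPKM in the IVCC libraries and 734797, 675214 and 932626 FPKM in the Sham libraries, and it was highest in the libraries in which Kap was highest.

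**Figure D1:**
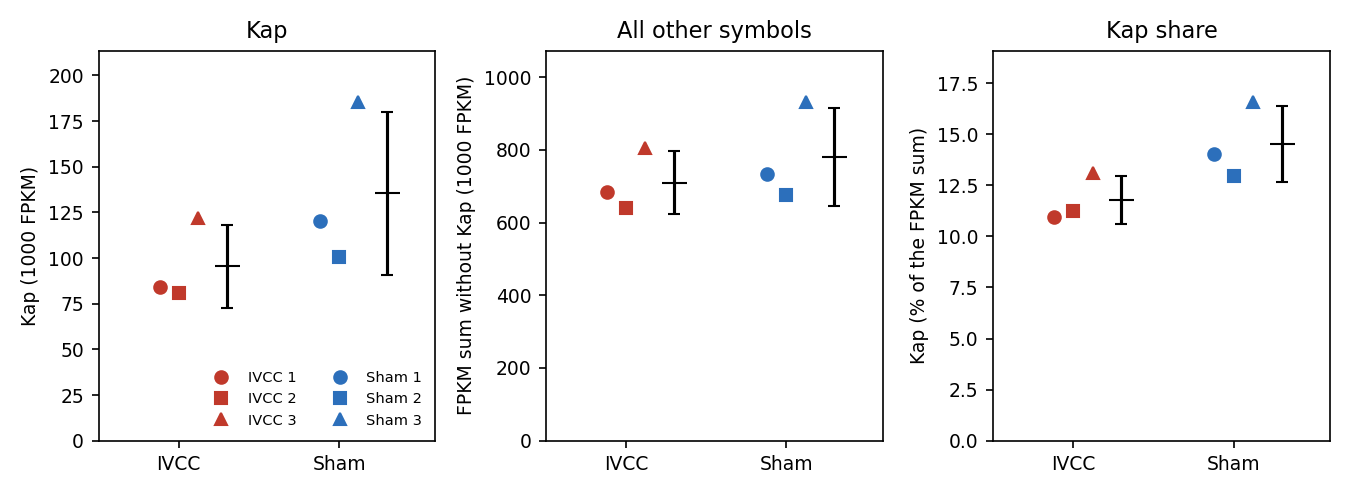
Kap and the FPKM sum of all other symbols, both in units of 1000 FPKM, and Kap as a percentage of the FPKM sum, by library (red IVCC, blue Sham; the symbol shape is the replicate number, bars are mean ± SD, n = 3 each). Sham 3 is highest in all 3 panels, and the IVCC shares of 10.96% to 13.11% overlap the Sham shares of 12.96% to 16.60% only at IVCC 3.

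Averaged over the 6 libraries, Kap stood at 115476 FPKM, 26.1 times the next member, Miox. It was 4.78 times Gpx3, which encodes the plasma glutathione peroxidase made by the tubule and was the second most abundant symbol, at 24168 FPKM. Other abundant symbols that are no member were the ferritin genes Fth1 (7971 FPKM) and Ftl1 (5816 FPKM), Fxyd2, a subunit of the sodium pump (6741 FPKM), and the microRNA gene Mir135a-1 (5518 FPKM). Lower in abundance were the kallikrein gene Klk1 (4738 FPKM), the trypsin inhibitor gene Spink1 (4229.7 FPKM), Tpt1 (4003 FPKM) and the elongation factor gene Eef1a1 (3598 FPKM). None of these 9 passed the test between IVCC and Sham. For a short RNA such as Mir135a-1, an FPKM from an mRNA library depends strongly on the effective length used, so its value is uncertain.

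The members ranked in the order Kap, Miox, Slc27a2, Sepp1, Keg1, Acsm2, Gatm, Ass1, Acsm3 and Acsm1 by mean FPKM, a scale per transcript length. Neighbours whose ranges over the 6 libraries overlapped were Miox and Slc27a2, Slc27a2 and Sepp1, Ass1 and Acsm3, and Acsm3 and Acsm1. Miox was nevertheless above Slc27a2 within 6 of 6 libraries, and Acsm3 above Acsm1 within 6 of 6, whereas Slc27a2 was above Sepp1, and Ass1 above Acsm3, in 4 of 6 each. Miox ranked between 7 and 12 among all symbols, and Acsm1 between 778 and 932.

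**Figure D2:**
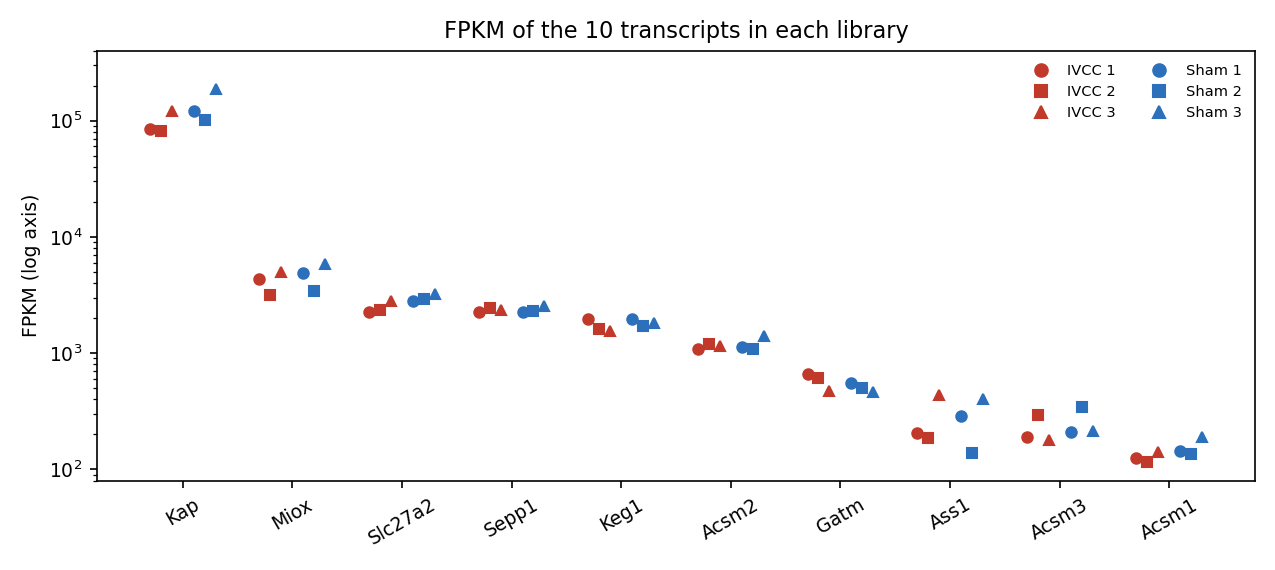
FPKM of the 10 transcripts in each of the 6 libraries on a log axis (red IVCC, blue Sham; the symbol shape is the replicate number). Kap stands apart at 80825 to 185632 FPKM, and for every member the IVCC and Sham values overlap.

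No member passed the test between the groups. Limma called 0 of 12090 tested genes (0% of the background), with a smallest adjusted p of 0.790, while 431 genes (3.56%) had an unadjusted p under 0.05. None of the 10 members was among those. The fitted value was below 0 for 8 of the 10 members, against 51.6% of all genes tested. Their median log2 fold change was -0.13, against -0.01 over all genes. In FPKM the groups overlapped for all 10 members, where 8.31% of all genes did not overlap. After rescaling to the column sum the median of all genes moved to 0.14, and 4 of the 10 members, Kap, Slc27a2, Acsm1 and Acsm3, were below 0. Relative to the median of all genes, 3 members lay above and 7 below both before and after rescaling. Without Sham replicate 3, the number of members below 0 was 5 of 10. In these bulk libraries fewer proximal tubule cells and less of a transcript per cell cannot be told apart.

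Miox (chromosome 15, 89334398 to 89337015, plus strand), whose enzyme myo-inositol oxygenase begins the breakdown of inositol to glucuronate, was listed at 4330.5, 3169 and 4991 FPKM in the IVCC libraries, against 4864, 3399 and 5793 FPKM in the Sham libraries. The library numbered 2 was lowest in both groups and the one numbered 3 highest. The log2 fold change of Miox was -0.16 (standard error 0.30, limma adjusted p = 0.936), and the sign turned after rescaling to the column sum (0.016). As a share it took 0.564%, 0.440% and 0.538% in IVCC, against 0.569%, 0.438% and 0.518% in Sham, which follow the replicate numbers more closely than the groups.
Of 11 tested genes of inositol and glucuronate metabolism, 3 had a higher and 8 a lower fitted value in IVCC, and none passed the test. Akr1a1, an aldehyde reductase that acts on glucuronate, had a mean FPKM of 2538 ± 287 in IVCC and 2806 ± 545 in Sham (SD, n = 3). After rescaling to the column sum, which moved the median of all genes to 0.145, the counts were 9 higher and 2 lower. Against the median of all genes, 3 lay above and 8 below both before and after rescaling. Without rescaling, the counts of higher and lower were 8 and 3 without Sham replicate 3, and without Sham replicate 1 they were 1 and 10.

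Slc27a2 (chromosome 2, 126552407 to 126588243, plus strand) encodes FATP2, which takes up and activates long-chain fatty acids. It was listed at 2277, 2338 and 2806 FPKM in the IVCC libraries, against 2791, 2942 and 3219.6 FPKM in the Sham libraries. IVCC 3 lay just above Sham 1, and all other IVCC values lay below all Sham values. For Slc27a2 the log2 fold change was -0.27 (standard error 0.20, 95% interval -0.75 to 0.20, limma adjusted p = 0.924). As a share the groups overlapped widely, at 0.296%, 0.325% and 0.302% in IVCC against 0.326%, 0.379% and 0.288% in Sham.

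The 3 Acsm genes encode mitochondrial medium-chain acyl-CoA synthetases and lie within 1 stretch of the plus strand of chromosome 7, Acsm2 from 119554340 to 119600690, Acsm1 from 119607026 to 119662515 and Acsm3 from 119760923 to 119787513. They share no stretch of 75 bases, the read length, in the annotated transcripts. Acsm1 was listed at 125, 115 and 142 FPKM in the IVCC libraries, against 145, 135 and 191 FPKM in the Sham libraries. IVCC 3 lay between Sham 2 and Sham 1, and the log2 fold change was -0.29 (standard error 0.17, limma adjusted p = 0.924). As a share Acsm1 was the steadiest of the 10 members, with a coefficient of variation of 4.64% over the 6 libraries. Its share was 0.0162%, 0.0159% and 0.0153% in IVCC, against 0.0169%, 0.0173% and 0.0171% in Sham. The spread of these shares within a group was of the size of the counting error of Acsm1, 1.93% to 2.24% where it was the lowest member of a library. The shares did not overlap between the groups, which held for 7.68% of all genes tested, and Acsm1 was the 1 member of 10 for which it held.

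Acsm2 was listed at 1076, 1208 and 1156 FPKM in the IVCC libraries, against 1122, 1076 and 1415 FPKM in the Sham libraries, with Sham 3 alone above the rest. Acsm2 had a log2 fold change of -0.06 (standard error 0.18, limma adjusted p = 0.957), and without Sham replicate 3 it was 0.060. Acsm3 was listed at 189, 295 and 179.9 FPKM in the IVCC libraries, against 208, 342 and 214 FPKM in the Sham libraries, and the library numbered 2 was highest in both groups. Acsm3 had a log2 fold change of -0.20 (standard error 0.26, limma adjusted p = 0.924). The 3 genes had different profiles over the same libraries: Sham 3 was highest for Acsm1 and Acsm2, and Sham 2 for Acsm3.

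Keg1 (chromosome 19, 12695786 to 12719902, plus strand), of the glycine N-acyltransferase family, was listed at 1951, 1624 and 1561 FPKM in the IVCC libraries, against 1952, 1725 and 1829 FPKM in the Sham libraries. IVCC 1 and Sham 1 were alike and highest. Keg1 had a log2 fold change of -0.11 (standard error 0.19, limma adjusted p = 0.933), and the sign turned after rescaling to the column sum (0.072).
Of 14 tested genes of acyl-CoA synthesis and glycine conjugation other than the members, 8 were higher and 6 lower in IVCC and none passed. After rescaling to the column sum 12 were higher and 2 lower. Against the median of all genes, 8 lay above and 6 below before rescaling, and 9 and 5 after it. Glyat, the glycine N-acyltransferase that conjugates benzoyl-CoA, had a mean FPKM of 663 ± 87.0 in IVCC and 723 ± 189 in Sham (SD, n = 3). The acetyl-CoA synthetase genes Acss2 (cytosolic) and Acss1 (mitochondrial) had log2 fold changes of -0.24 and 0.29, limma adjusted p = 0.924 each.

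Gatm (chromosome 2, 122594467 to 122611303, minus strand), whose enzyme makes guanidinoacetate for creatine, was listed at 660.4, 615 and 468 FPKM in the IVCC libraries, against 552, 499.5 and 460.4 FPKM in the Sham libraries. IVCC 1 and IVCC 2 lay above every Sham library and IVCC 3 did not. Its log2 fold change was 0.19 (standard error 0.18, limma adjusted p = 0.924), and it stayed above 0 under every alternative run. Sepp1 (chromosome 15, 3268547 to 3280508, plus strand) was listed at 2280.3, 2438 and 2348 FPKM in the IVCC libraries, against 2249, 2325 and 2520.2 FPKM in the Sham libraries. It was the steadiest member in FPKM, with a coefficient of variation of 4.31% over the 6 libraries. The log2 fold change of Sepp1 was -0.005 (standard error 0.19, 95% interval -0.44 to 0.43, limma adjusted p = 0.996).
Of 19 tested selenoproteins and genes of selenium handling, 7 were higher and 12 lower in IVCC and none passed. The selenium-dependent peroxidase genes Gpx3, Gpx1 and Gpx4 had log2 fold changes of 0.08, -0.18 and -0.33. After rescaling to the column sum the counts were 14 higher and 5 lower. Against the median of all genes, 7 lay above and 12 below before rescaling, and 6 and 13 after it.

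Ass1 (chromosome 2, 31470207 to 31520672, plus strand), whose enzyme joins citrulline and aspartate on the way to arginine, was the least steady member in FPKM, with a coefficient of variation of 44.1% over the 6 libraries. As a share it varied by 32.2%, less than Acsm3 (38.1%). Ass1 was listed at 206, 187 and 437 FPKM in the IVCC libraries, against 289.9, 139 and 407 FPKM in the Sham libraries, a 3.15-fold range that runs across both groups. The libraries numbered 3 were highest and those numbered 2 lowest in both groups. Its log2 fold change was 0.01 (standard error 0.45, limma adjusted p = 0.996). Its value is uncertain, because the table also lists Gm5424, a processed pseudogene of 1 exon on chromosome 10 (62071123 to 62072362, plus strand) whose transcript is a near copy of the Ass1 coding sequence. The aligned 1240 bases differ at 6 positions (99.5% identity, no gap), and cover positions 203 to 1442 of the 1696-base Ass1 transcript, whose coding part runs from 203 to 1438. Of the 1622 stretches of 75 bases in Ass1, 761 (46.9%) are also in Gm5424. A read from any of these fits both genes. The other 9 members share no such stretch with another annotated gene.
The 75 coding bases in which the annotated transcripts differ most are shown because they mark how little separates the genes, with the 2 mismatches in capitals.
Ass1, transcript positions 557 to 631: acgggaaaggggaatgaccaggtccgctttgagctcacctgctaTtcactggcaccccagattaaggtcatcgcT
Gm5424, transcript positions 355 to 429: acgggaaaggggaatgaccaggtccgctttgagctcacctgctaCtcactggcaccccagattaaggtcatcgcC
Gm5424 was listed at 2957, 2536 and 2838 FPKM in the IVCC libraries, against 2735, 2457 and 2972 FPKM in the Sham libraries, far above Ass1 in every library. The sum of both rows was 3163, 2722 and 3275 FPKM in the IVCC libraries, against 3025, 2596 and 3379 FPKM in the Sham libraries. It spread 1.30-fold over the libraries, against 3.15-fold for Ass1 alone, and its mean was 3053 ± 292 in IVCC and 3000.04 ± 392.1 in Sham in FPKM (SD, n = 3). How reads were divided between the rows is not given in the sources used here. Of 12 other tested genes of arginine and creatine metabolism, 5 were higher and 7 lower in IVCC and none passed. After rescaling to the column sum 10 were higher and 2 lower. Against the median of all genes, 5 lay above and 7 below before rescaling, and 4 and 8 after it. Without rescaling, the counts of higher and lower were 9 and 3 without Sham replicate 3. They were 3 and 9 without IVCC replicate 3 or Sham replicate 2. Odc1, which makes putrescine from ornithine, had a mean FPKM of 703 ± 106 in IVCC and 660.3 ± 65.9 in Sham (SD, n = 3). Asl, which follows Ass1 in arginine synthesis, had a log2 fold change of -0.06, and Prodh, which breaks down proline, 0.03.

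**Figure D3:**
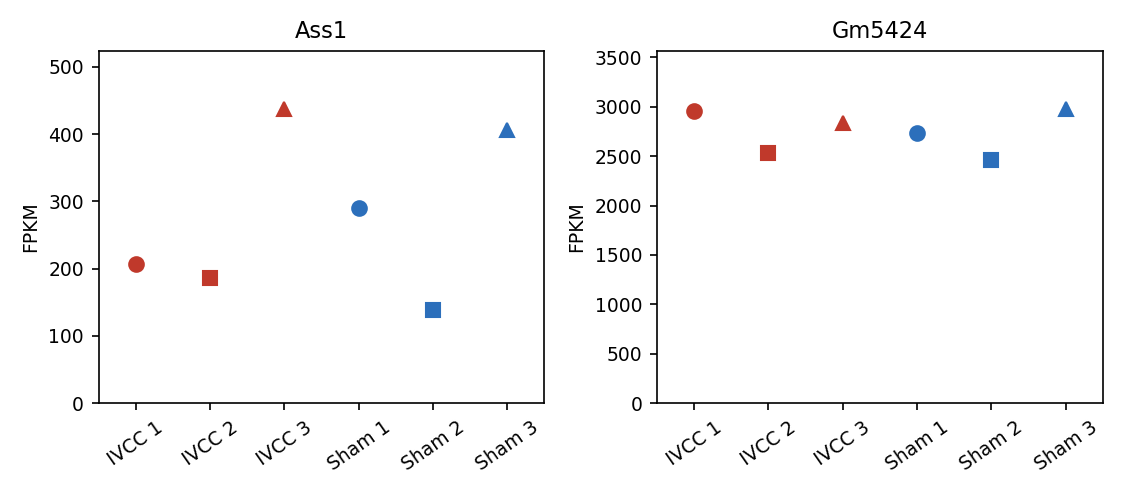
FPKM of Ass1 and of its processed pseudogene Gm5424 in each library (red IVCC, blue Sham; the axes differ in scale and start at 0). Ass1 ranges from 139 to 437 FPKM with the libraries numbered 3 highest in each group, while Gm5424 stays between 2457 and 2972 FPKM.

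The combined share of the 9 other members was, Sham 1 apart, lower in each library in which the share of Kap was higher. The 9 others together took 1.70%, 1.67% and 1.52% in IVCC, against 1.66%, 1.62% and 1.44% in Sham. The library with the highest share of Kap, Sham 3, had the lowest combined share, and IVCC 1, with the lowest share of Kap, had the highest. The means were 1.63 ± 0.098% in IVCC and 1.57 ± 0.120% in Sham (SD, n = 3 each). Over the 6 libraries Pearson's r was -0.82 and Spearman's rho -0.83 between both shares, given as a description of members chosen with results known. On the FPKM scale the sign was the other way, with r of 0.95 and rho of 0.89. Shares have a common denominator of which Kap is a large part, and FPKM have the column's scale in common, so both values rest partly on what the columns share. Kap FPKM and the FPKM sum of all other symbols had r of 0.96.

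One by one, the share of Kap had the most negative r with Gatm (r = -0.90, rho = -0.83), Sepp1 (r = -0.86, rho = -0.77) and Keg1 (r = -0.73, rho = -0.66). The values for Acsm2 were r = -0.66 and rho = -0.77, for Acsm3 r = -0.48 and rho = -0.71, and for Slc27a2 r = -0.21 and rho = -0.14. The values were positive for Acsm1 (r = 0.49, rho = 0.31), Ass1 (r = 0.40, rho = 0.60) and Miox (r = 0.18, rho = 0.14). The share of Gm5424, the near copy of Ass1, had the other sign (r = -0.93, rho = -0.83), so the value for Ass1 alone is uncertain. None of the 9 passed the exact permutation test over the 720 pairings after adjustment over all 12089 genes tested, with adjusted p from 0.138 (Gatm) to 0.809 (Miox) for r. That test called 0 genes (0%) in either direction, with a smallest adjusted p of 0.138, while 3970 genes (32.8%) had a negative and 205 genes (1.7%) a positive r at an unadjusted exact p under 0.05. The members' unadjusted exact p was under 0.05 for Gatm (p = 0.0181) and Sepp1 (p = 0.0417). Over all genes r was below 0 for 83.7%, with a median of -0.72, so a negative r with the share of Kap was the common state. Of the 9 members 6 had a negative r.

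**Figure D4:**
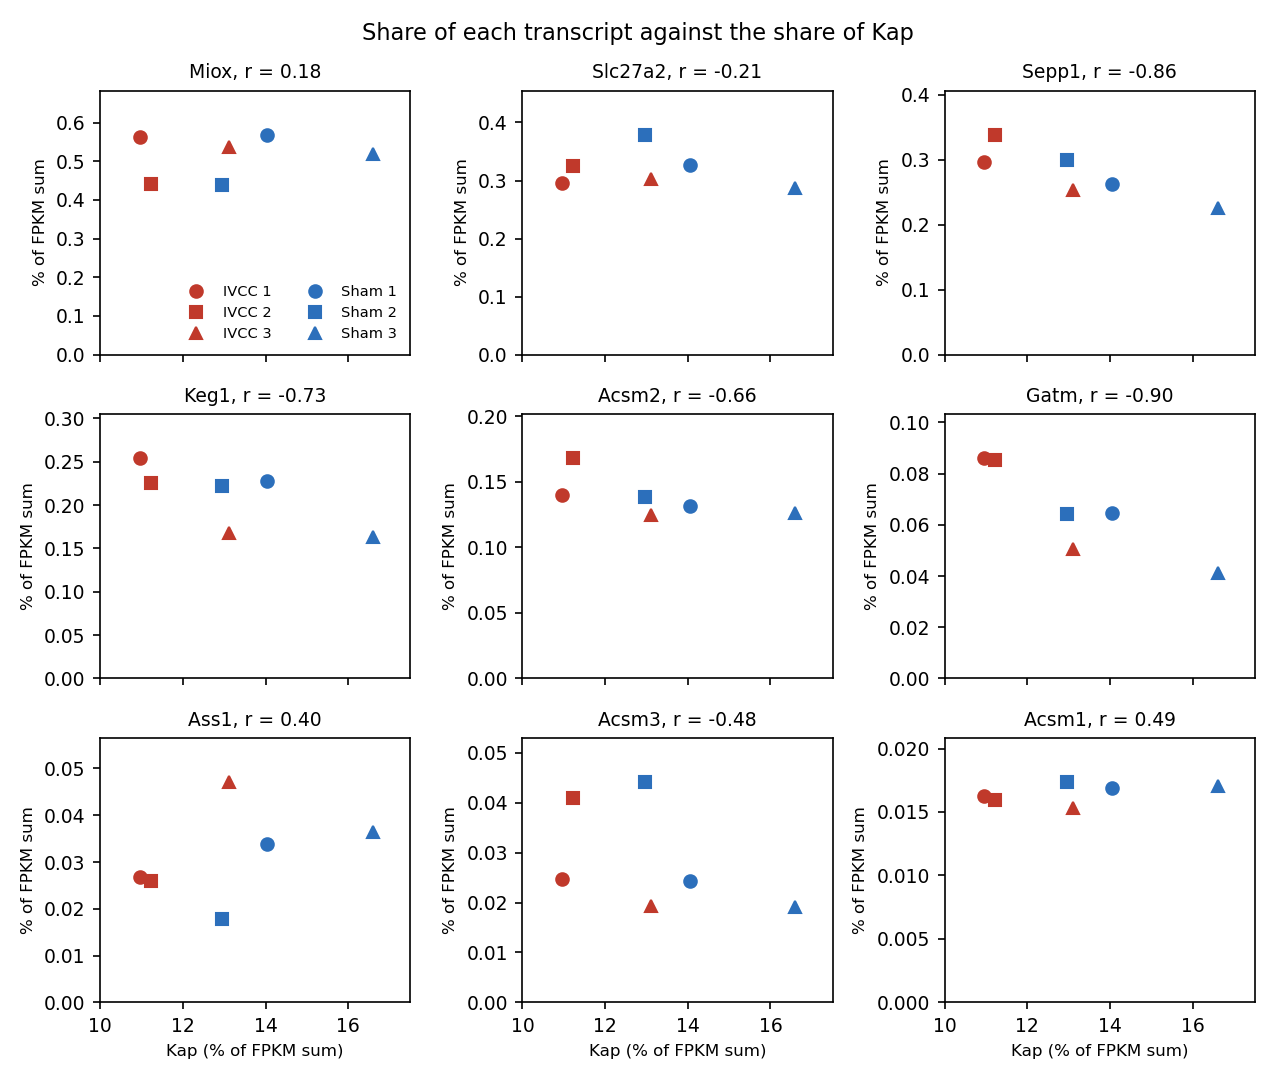
Share of each of the 9 other transcripts against the share of Kap, both in percent of the FPKM sum, with 1 point per library (red IVCC, blue Sham; the symbol shape is the replicate number) and Pearson's r in each title. Gatm and Sepp1 are lowest in Sham 3, where the share of Kap is highest, whereas the share of Acsm1 stays between 0.0153% and 0.0173%.

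Leaving out IVCC 1 and Sham 3, the libraries farthest from the median share of Kap, r over the other 4 was -0.74 for Gatm, -0.87 for Sepp1, -0.89 for Acsm2 and -0.60 for Acsm3. It was -0.13 for Keg1 and 0.02 for Slc27a2, so that the value for Keg1 rests on those libraries, while it was 0.77 for Miox, 0.37 for Acsm1 and 0.33 for Ass1. Against the other members as a share of the sum without Kap, which takes Kap out of their denominator, r was 0.76 for Acsm1 and 0.002 for Slc27a2.

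In FPKM the members split otherwise. Acsm1 followed Kap most closely, with r = 0.99 (exact permutation adjusted p = 0.0430), in both groups and in the same order of libraries but for 1 exchange of neighbours. By rank Acsm1 did not pass, with rho = 0.94 (exact permutation adjusted p = 0.0784), where 816 genes passed, and Miox had the same rho. The call for Acsm1 on r was also lost without any 1 of the 6 libraries, with adjusted p from 0.0919 to 0.224, in subsets in which no gene passed. The r was 0.86 for Slc27a2, 0.85 for Miox, 0.81 for Acsm2, 0.75 for Ass1, 0.56 for Sepp1 and 0.12 for Keg1, and it was -0.33 for Acsm3 and -0.75 for Gatm. On this scale the exact permutation test called 781 of 12089 genes (6.46%), 604 positive (5% of genes) and 177 negative, and Acsm1 was the 1 member among them. An unadjusted exact p under 0.05 with a positive r was found for 3 of the 9, Acsm1, Slc27a2 and Miox, against 23.3% of genes. Over all genes r was above 0 for 54.5% and below 0 for 45.5%, with a median of 0.16, and 2 of the 9 members had a negative r. Leaving out IVCC 2 and Sham 3, the libraries farthest from the median FPKM of Kap, r was 0.99 for Acsm1, 0.88 for Acsm2, 0.59 for Miox, 0.69 for Slc27a2 and -0.44 for Keg1. Without Sham replicate 3 it was 0.96 for Acsm1 and -0.06 for Acsm2. With 5 libraries the exact permutation test cannot go below p = 0.00833 and with 4 not below 0.0417, and it called 0 genes in each of these subsets.

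**Figure D5:**
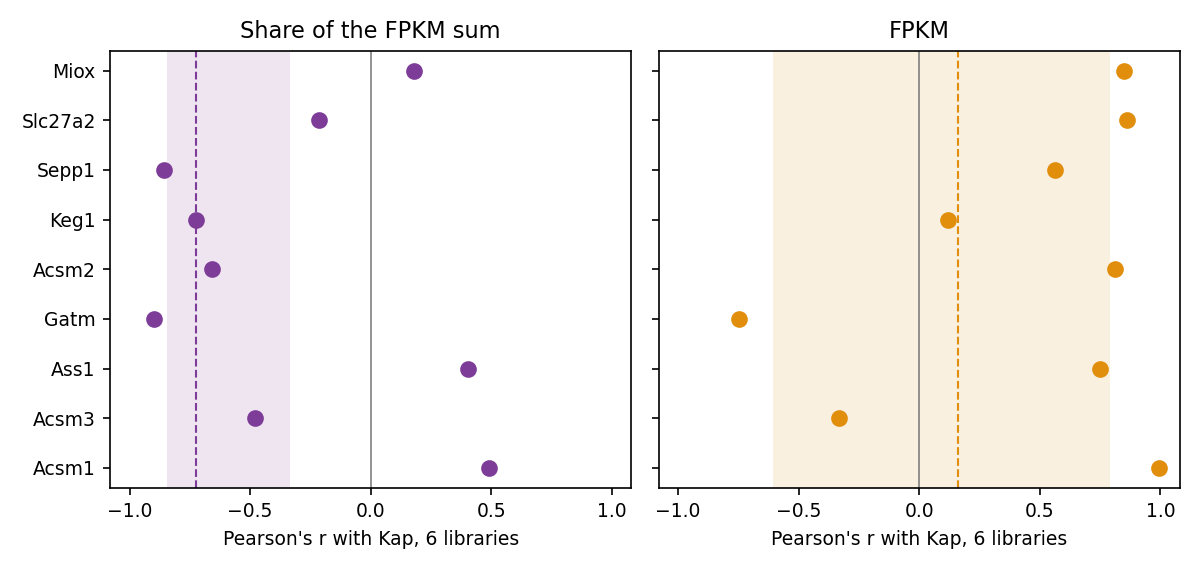
Pearson's r of each member with Kap over the 6 libraries, on the share scale and on the FPKM scale (points), with the middle quartiles of r over all 12089 tested genes shaded and their median dashed. On the share scale most genes lie below 0 around a median of -0.72. There Acsm1, Ass1, Miox and Slc27a2 lie above the shaded range, and Gatm and Sepp1 lie below its lower quartile of -0.84. On the FPKM scale Acsm1, Slc27a2, Miox and Acsm2 lie beyond the upper quartile of 0.79 and Gatm below the lower quartile of -0.61.

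Transcript length moved with these correlations across all genes. The median r with Kap in FPKM was 0.85 over 1271 tested genes with transcripts under 1000 bases, 0.74 over 3079 genes of 1000 to 2000 bases, 0.03 over 4941 genes of 2000 to 4000 bases and -0.71 over 2722 longer genes. The median log2 deviation of the shortest class from its mean over the libraries was -0.14, -0.31 and 0.16 in IVCC 1 to 3 and 0.02, -0.13 and 0.40 in Sham 1 to 3. That of the longest class ran the other way, at 0.06, 0.19 and -0.09 in IVCC and -0.02, 0.06 and -0.20 in Sham. Kap, with a median annotated transcript of 585.5 bases, deviated by -0.40, -0.46 and 0.13 in IVCC and 0.12, -0.14 and 0.74 in Sham, in the same order of libraries as the shortest class and over a wider range. After a correction for length and GC content its log2 fold change was -0.37 (standard error 0.20, limma adjusted p = 0.908). The annotated transcripts had 2083 bases for Acsm1 and 2099 bases for Acsm2, both near the lower edge of the class of 2000 to 4000 bases, 2918 bases for Slc27a2 and 1130 bases for Miox. Other genes of each member's length class were compared with it by r in FPKM. Those at or above the member made up 0.0202% for Acsm1, 10.7% for Slc27a2, 14.3% for Acsm2 and 29.0% for Sepp1. They made up 36.9% for Miox, 49.4% for Ass1, 63.6% for Acsm3, 79.3% for Keg1 and 85.6% for Gatm. RNA integrity was not analysed here, and the part of length in these correlations was not tested further.

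Among 6383 genes with at least 10 FPKM on average, the share profiles most like that of Kap were those of Pantr1 (r = 0.99), a long non-coding RNA, Ndufb5 (r = 0.99), a subunit of respiratory complex I, and Apoc3 (r = 0.98), an apolipoprotein gene. The profiles most unlike it were those of Gnai2, an inhibitory G protein subunit, Osbpl5, a lipid transfer protein, and Bag6, a chaperone, with r of -0.999, -0.997 and -0.996. The median annotated transcripts of the first 3 had 647, 625 and 526 bases and those of the other 3 had 1777, 3884.5 and 3693 bases. None passed the exact permutation test after adjustment over all genes (adjusted p = 0.138 each).

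The segment markers of the proximal tubule parted between the groups without passing the test. Of 20 tested markers of the early segments S1 and S2, 16 had a higher and 4 a lower fitted value in IVCC. Their median log2 fold change was 0.16. After rescaling to the column sum the counts were 19 and 1. Against the median of all genes, 16 lay above and 4 below both before and after rescaling. Leaving out each library, 13 to 19 of the 20 were higher. Of 8 markers of the last segment S3, 0 were higher and 8 lower, with a median of -0.27. The number higher was 1 after rescaling to the column sum, after rescaling without Kap or after quantile normalization. It was also 1 without IVCC replicate 1, IVCC replicate 3 or Sham replicate 2, and 0 without each other library. The 3 most abundant S3 markers were the acylase gene Acy3 (log2 fold change -0.25), the glutathione-cleaving enzyme gene Ggt1 (-0.25) and the amino acid transporter gene Slc7a13 (-0.35). Among the most abundant of S1 and S2 were Slc34a1 (0.17) and the gluconeogenic gene Fbp1 (-0.07). For 3 of the S3 markers, Slc22a7, Cyp7b1 and Slc6a18, all IVCC values lay below all Sham values, against 4.22% of all genes, and for Slc34a1, Slc6a19 and Slc7a8 of S1 and S2 all lay above, against 4.09%. Slc22a7, an organic anion transporter, had a mean FPKM of 80.04 ± 16.5 in IVCC and 149 ± 29.5 in Sham (SD, n = 3), and the oxysterol hydroxylase gene Cyp7b1 had 69.0 ± 20.5 in IVCC and 152 ± 48.3 in Sham (SD, n = 3). Of 10 androgen-dependent genes other than Kap, which include Cyp7b1 and Slc7a13, 3 were higher and 7 lower, against 7 higher and 3 lower after rescaling to the column sum. The counts were 6 and 4 without Sham replicate 3, without IVCC replicate 1 they were 5 and 5, and without IVCC replicate 2 or Sham replicate 1 they were 1 and 9. The transcription factor gene Hnf4a had a log2 fold change of 0.004.

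Markers of other kidney cells were followed in the same libraries, and none passed the test between the groups. The 6 podocyte markers together made up 0.00657% to 0.0145% of the FPKM sum in IVCC and 0.00443% to 0.00670% in Sham, all 6 with a higher fitted value in IVCC. The 6 endothelial markers made up 0.0123% to 0.0161% in IVCC and 0.00839% to 0.0125% in Sham, again with all 6 higher. Stromal markers, at 0.00635% to 0.00767% in IVCC and 0.00483% to 0.00683% in Sham, were higher for 4 of 6. After rescaling to the column sum 5 of 6 were higher, and 4 of 6 lay above the median of all genes. Macrophage markers, at 0.00963% to 0.0130% in IVCC and 0.00686% to 0.00895% in Sham, were higher for 5 of 6. None of these lists had a marker at 0 in every library. Without Sham replicate 2 or Sham replicate 3, 5 of the 6 endothelial markers were higher. Their r with the share of Kap was negative for all 6 podocyte, all 6 endothelial, 5 of 6 stromal and all 6 macrophage markers, where 83.7% of all genes were negative. Their part in the values of Kap was not tested.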

How the data were processed

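Total RNA of mouse kidneys was made into stranded mRNA libraries and read as single 75-base reads, per the labels' protocols. The authors deposited 1 table of FPKM with 1 column per library, used as deposited. Per the submitters' processing notes, which give no roles, Cufflinks 2.2.1, TopHat2 2.0.13, SAMtools 0.1.19 and Bowtie2 2.2.3 were used with mm10. The authors' annotation is not given in the sources used here.

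Genes with at least 1 FPKM on average (12090, with 12256 below) were transformed to log2(FPKM + 1), a scale that understates the change of low genes, and compared with limma 3.58.1 in R 4.3.3 (eBayes with a mean-variance trend, two-sided, Benjamini-Hochberg adjustment over all of them, threshold 0.05). The share of Kap was compared by an exact permutation test. Correlations with Kap over the 6 libraries were tested by exact permutation over the 720 pairings and adjusted over all 12089 other genes. Calculations outside R used Python 3.11.15 with scipy 1.17.1. Both tests were tested on simulated data.

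Nominal library sizes come from genes with transcripts of 1500 to 5000 bases and values from 0.02 to 0.1 FPKM, at an assumed fragment length of 200 bases. Between 81.2% and 86.4% of those values lay within 0.1 of a whole number of reads, too few for a count test. Transcript lengths, coordinates and shared stretches are from GENCODE M21 (GRCm38, the assembly that mm10 names), and 99.4% of tested genes had a length. Promoters are from RefSeq, and all 10 members matched by symbol, Sepp1 as Selenop. No protein sequences were used.

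The members and the gene lists were chosen with earlier results of these data known. Genes named beside the members were taken by rule: the 10 most abundant other symbols, the 3 highest and 3 lowest correlations with the share of Kap, and the 3 most abundant genes of each list in the same pathways or segments. They also include any gene past the threshold, and Hnf4a. Some genes that the rule takes are not reported here. Gm5424 and the segment markers whose groups did not overlap were added after their values were seen. The replicate number as a block, other scalings, filters and pseudocounts, and leaving out each library were tried as alternatives. Chosen only after seeing the data were a length and GC correction, leaving out both libraries numbered 3, and the alternatives to the correlations in FPKM.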

Additional observations from a re-analysis of the deposited data

How the results depend on the processing

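No gene was called by limma in the comparison as reported, with 431 genes at an unadjusted p under 0.05. The count of called genes was 23 without the filter on low values, 0 to 4 when each library was left out (4 without IVCC replicate 3), 4 without the libraries numbered 3, 1 with the length and GC correction and the replicate block, and 0 under the other settings. No member was among the called genes under any setting. Same-numbered IVCC and Sham libraries deviated together for 2 of 3 numbers (r = 0.343 and 0.323 for numbers 2 and 3, -0.107 for number 1), so the numbers were not taken to pair the samples. With the replicate number as a block limma called 0 of 12090 genes, with a smallest adjusted p of 0.0775. In that fit 2388 genes had an unadjusted p under 0.05, and Kap had an adjusted p of 0.0820. Kap, Slc27a2, Acsm1, Acsm3, Miox and Gatm were among the 2388, with unadjusted limma p from 0.00055 (Kap) to 0.0374 (Gatm). The share of Kap was lower in IVCC under every alternative run, with differences of -23.7% to -12.9% of the Sham mean. The difference in median-ratio scaled FPKM was -29.4%. With the block the difference was -18.8% (exact permutation p = 0.25, the smallest p that 3 same-numbered pairs allow). Within all 3 numbers the share was lower in IVCC. Leaving out each library, the difference lay between -23.7% and -12.9%. The log2 fold change of Kap was 0 after quantile normalization, which gives the top gene 1 value in every library. The combined share of the 9 others, 3.68% higher in IVCC than in Sham, was -8.60% on the median-ratio scale, -0.640% to 7.21% when each library was left out (below 0 without Sham replicate 3), and 3.76% with the block.

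Rescaling to the column sum turned the sign of Miox (0.016), Keg1 (0.072), Acsm2 (0.12) and Sepp1 (0.17), with the same values with the replicate block added, against a median of all genes of 0.1445. Rescaling to the sum without Kap turned Keg1 (0.025), Acsm2 (0.069) and Sepp1 (0.13). Quantile normalization turned Miox (0.11), Keg1 (0.14), Acsm2 (0.14) and Sepp1 (0.15). The length and GC correction, with or without the block, turned Miox (0.018), Keg1 (0.0046) and Sepp1 (0.055). Leaving out the libraries numbered 3 turned Acsm2 (0.053), Ass1 (-0.032) and Sepp1 (0.044). Over the settings that leave out 1 library, the log2 fold change was -0.38 to 0.023 for Miox, -0.14 to 0.06 for Acsm2, -0.43 to 0.031 for Acsm3, -0.42 to 0.35 for Ass1 and -0.04 to 0.042 for Sepp1. The cause of these changes was not tested. Kap, Slc27a2, Acsm1 and Gatm kept their sign under every setting, Kap apart from the 0 above.

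No gene passed the correlation test with Kap on the share scale, but 781 did in FPKM, 717 in median-ratio scaled FPKM and 976 with deviations from the means of each number (replicate block). The r with Kap turned sign in FPKM and in median-ratio scaled FPKM for Keg1 (0.119 and 0.0193), Slc27a2 (0.859 and 0.815), Acsm2 (0.812 and 0.789) and Sepp1 (0.562 and 0.382). With the replicate block it turned for Miox (-0.550), Slc27a2 (0.429), Acsm3 (0.241) and Ass1 (-0.391). It turned for Acsm1 (-0.627) with deviations from the group means, and for Slc27a2 with the sum without Kap (0.00245) and without the 2 libraries farthest from the median (0.0220). Leaving out each library, r was -0.125 to 0.534 for Miox and -0.49 to 0.336 for Slc27a2 on the share scale, and -0.096 to 0.421 for Keg1, -0.0582 to 0.974 for Acsm2 and -0.449 to 0.873 for Sepp1 in FPKM. The sign turned without Sham replicate 3 for Slc27a2, Keg1, Acsm2 and Sepp1, and without IVCC replicate 2 for Miox and Keg1. In FPKM the count of called genes was 2104 with deviations from the group means, 0 without the 2 farthest libraries and 0 leaving out each library, subsets in which the smallest possible p is larger. Deviations from a group mean are tied to each other within the group, so the p-values behind the 2104 are not exact either. On the FPKM scale r turned sign for Keg1 without the 2 farthest libraries (-0.441) and with deviations from the group means (-0.151). Precision is limited by 3 libraries per group and an unknown true depth.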

Other observations

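The remaining lists of kidney and neighbouring cells had no gene past the limma threshold. Markers of the thick ascending limb had 4 genes with a higher and 3 with a lower fitted value in IVCC, distal tubule markers 3 and 2, and collecting duct markers 5 and 3. Liver markers, of which Ttr was the most abundant (mean FPKM 202 ± 81.5 in IVCC and 275 ± 117 in Sham, SD, n = 3), had 0 higher and 5 lower. Of 3 genes known to be higher in female kidneys 0 were higher and 3 lower, and of 4 tested sex-linked genes 3 were higher and 1 lower. After rescaling to the column sum the counts of higher and lower genes were 6 and 1 for the thick ascending limb, 6 and 2 for the collecting duct, 1 and 3 for liver, 1 and 2 for the genes higher in females and 4 and 0 for the sex-linked genes. The median of all genes was then 0.145. In the same order, 5 and 2, 5 and 3, 0 and 4, 0 and 3, and 3 and 1 lay above and below that median. Without Sham replicate 3 the genes higher in females had 2 higher and 1 lower, and the sex-linked genes 1 higher and 3 lower. Leaving out each library, the number higher was 2 to 6 for the thick ascending limb, 1 to 4 for the distal tubule, 3 to 6 for the collecting duct and 0 to 1 for liver.

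Genes of the cytosolic ribosome (100 symbols) took 7.40%, 6.55% and 7.98% of the FPKM sum in IVCC and 7.63%, 7.04% and 8.30% in Sham. Subunits of the respiratory chain and ATP synthase (88 symbols) took 7.203%, 6.60% and 7.67% in IVCC and 7.51%, 7.29% and 7.96% in Sham. In both groups of genes the library numbered 2 was lowest and the one numbered 3 highest, in IVCC and in Sham. The same order held for the FPKM of Kap, Miox, Acsm1 and Ass1 and for the FPKM sum.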
